A study of Mus musculus with 20 samples.

Results

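Kinesins are motor proteins that walk along microtubules. In neurons, a group of them carries vesicles, mitochondria and RNA granules along axons and dendrites. Others build and move the mitotic spindle in dividing cells, or work in cilia, the microtubule-based extensions of cells such as the ependyma that lines the brain ventricles. TDP-43, encoded by Tardbp, is an RNA-binding protein that also travels in neuronal RNA granules, and its mutations are known from amyotrophic lateral sclerosis and frontotemporal dementia. Kinesin genes were examined here in the frontal cortex of mice that carry such a mutation.

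The kinesin genes were taken by name, as the rows of the count table named Kif, a number and at most 1 letter, with a mean of at least 0.1 CPM (counts scaled to the library's size) over the 20 libraries. Of the 25965 rows, 36 matched by name besides 1 gene that the rule leaves out, and 34 were kept. By their textbook roles, 14 of the 34 are transport kinesins, 11 are mitotic, 6 are ciliary and 3 are others. Kif2c with a mean of 0.148 CPM and Kif18b with 0.153 CPM lay just inside the limit. Kif12 with 0.00289 CPM and Kif2b with 0 CPM lay outside it. All 34 kinesins also passed the filter on low counts of the test across all genes.

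Polyadenylated RNA from the frontal cortex of C57BL/6 mice aged 5 months was sequenced in stranded libraries. The groups were 8 homozygous libraries (Q331K/Q331K), 6 heterozygous libraries (Q331K/+) and 6 wild-type libraries (+/+). The knock-in places the change Q331K in TDP-43 in the mouse gene itself, in every cell and from its own promoter. Nothing in the labels tells of litters or pooling beyond naming the samples singly, so a p-value here reflects only how the given samples vary.

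Homozygous libraries held 69312426 to 105412832 counts, heterozygous libraries 61282647 to 111440766 and wild-type libraries 75168829 to 96821696. Tardbp averaged 245 ± 10.5 CPM in homozygotes, 230 ± 7.52 CPM in heterozygotes and 218 ± 5.20 CPM in wild type (SD over 8, 6 and 6 libraries, here and below), and it was called in homozygotes against wild type (log2 change 0.17, edgeR adjusted p = 0.00372). All 7 markers of cortical neurons were present in every library. The 9 ependymal markers found in the table summed to 8.86 to 26.0 CPM in homozygotes, 9.03 to 18.0 CPM in heterozygotes and 8.63 to 10.5 CPM in wild type. Homozygous replicates 1, 4 and 2 and heterozygous replicate 2 held the 4 highest sums, at 26.0, 19.1, 18.4 and 18.0 CPM.

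The promoters of the mitotic and the transport genes differed in a short sequence element. Genes of the late cell cycle often carry the element TTTGAA, known as the CHR, to which repressor complexes bind in resting cells. RefSeq gives windows of 300 bases (250 before and 50 after a gene's start, GRCm38.p6) for 29 of the 34 kinesins, 33 windows in all. On either strand, TTTGAA occurred in 9 of 10 mitotic windows (90%) and in 1 of 13 transport windows (7.69%), against 17.9% of the 32851 windows of all genes. Within 30 bases of the RefSeq start, it occurred in 7 of 10 mitotic and 0 of 13 transport windows, against 3.14% of all windows. This limit was chosen after the matches were seen. The last 80 bases before the RefSeq start are shown for 3 mitotic genes, with the CHR in capitals as it reads on the gene's strand (TTCAAA, the reverse complement).
Kif11: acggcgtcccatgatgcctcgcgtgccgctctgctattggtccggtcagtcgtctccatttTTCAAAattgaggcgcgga
Kif15: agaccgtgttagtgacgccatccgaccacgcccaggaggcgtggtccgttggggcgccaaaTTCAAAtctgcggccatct
Kif22: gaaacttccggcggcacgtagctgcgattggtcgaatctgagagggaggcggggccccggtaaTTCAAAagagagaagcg
These stretches lie on GRCm38.p6 at chr19:37376302-37376381 (plus strand, Kif11), chr9:122951001-122951080 (plus strand, Kif15) and chr7:127042421-127042500 (minus strand, Kif22). The element begins 19 bases before the RefSeq start in Kif11 and Kif15 and 17 bases before it in Kif22. For Kif11 the deposited start, at 37376403, lies downstream of RefSeq's, and the element is more than 30 bases from it. Kif5c, a transport kinesin, is shown for contrast, and its 80 bases hold no match to the 4 motifs searched.
Kif5c: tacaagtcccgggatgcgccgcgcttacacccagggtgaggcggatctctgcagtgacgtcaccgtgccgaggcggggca
It lies at chr2:49619206-49619285 on the plus strand. Ciliary genes are often controlled through the X-box. Its first arm, GTTGCC, occurred in 3 of 6 ciliary windows (50%), 5 of 13 transport windows (38.5%) and 12.5% of all windows. Counted by gene, it occurred in 2 of 5 ciliary genes, 5 of 11 transport genes and 3821 of all 27025 genes with windows. The 2 overlapping windows of Kif9 hold the same match, shown in capitals.
Kif9: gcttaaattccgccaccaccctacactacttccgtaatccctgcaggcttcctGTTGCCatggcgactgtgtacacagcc
This stretch lies at chr9:110476914-110476993 on the plus strand, with the match 27 bases before the later RefSeq start. The CCAAT box occurred in 6 of 10 mitotic windows (60%), 4 of 13 transport windows (30.8%, 3 of 11 genes) and 37.4% of all windows. The E2F sequence TTCCCGCC occurred in 0 of 10 mitotic windows and 2.19% of all windows. A match is a run of letters in these windows, and binding was not measured.

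Transport kinesins made up almost all of the mRNA of these 34 genes. Levels between genes were compared as CPM per kb of exon, the union of all annotated exons of a gene, so a gene with long alternative exons such as Kif1b is understated. On this scale the transport class held 97.1 ± 0.089% of the summed kinesin level in homozygotes, 97.2 ± 0.043% in heterozygotes and 97.3 ± 0.071% in wild type. The mitotic class held 0.224 ± 0.033% in homozygotes, 0.205 ± 0.015% in heterozygotes and 0.199 ± 0.025% in wild type. The ciliary class held 0.600 ± 0.042% in homozygotes, 0.583 ± 0.023% in heterozygotes and 0.520 ± 0.030% in wild type.

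Kif1a, which carries synaptic vesicle precursors and dense core vesicles, was highest, at 192 ± 6.68 CPM per kb in homozygotes, 194 ± 3.64 in heterozygotes and 194 ± 1.55 in wild type. Kif5c, a neuronal conventional kinesin, came next at 149 ± 5.09 CPM per kb in homozygotes, 155 ± 3.95 in heterozygotes and 156 ± 3.62 in wild type. Kif1b, a carrier of mitochondria and synaptic vesicle precursors, followed at 61.0 ± 1.46 CPM per kb in homozygotes, 59.8 ± 1.81 in heterozygotes and 60.1 ± 1.63 in wild type. Below them, Kif3a, Kif21a, Kif3c and Kif5b lay between 30.6 and 49.8 CPM per kb in homozygotes. Kif15 was lowest in homozygotes and wild type. It had 0.0345 ± 0.0088 CPM per kb in homozygotes, 0.0303 ± 0.0065 in heterozygotes and 0.0249 ± 0.0050 in wild type. Kif2c, lowest in heterozygotes, had 0.0510 ± 0.0294 CPM per kb in homozygotes, 0.0161 ± 0.0068 in heterozygotes and 0.0292 ± 0.0240 in wild type. Its gap to Kif15 in wild type lay within the larger SD.

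The wild-type order spanned 7814-fold, and the lowest transport kinesin, Kif16b, lay 8.42-fold above the highest mitotic one, Kif4. In that order, 11 of 33 neighbouring pairs lay within the larger of their SDs and so could not be ordered. In homozygotes 28 of the 34 genes held the same rank as in wild type, and no gene moved by more than 1 rank. In heterozygotes 28 of 34 held their wild-type rank.

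**Figure D1:**
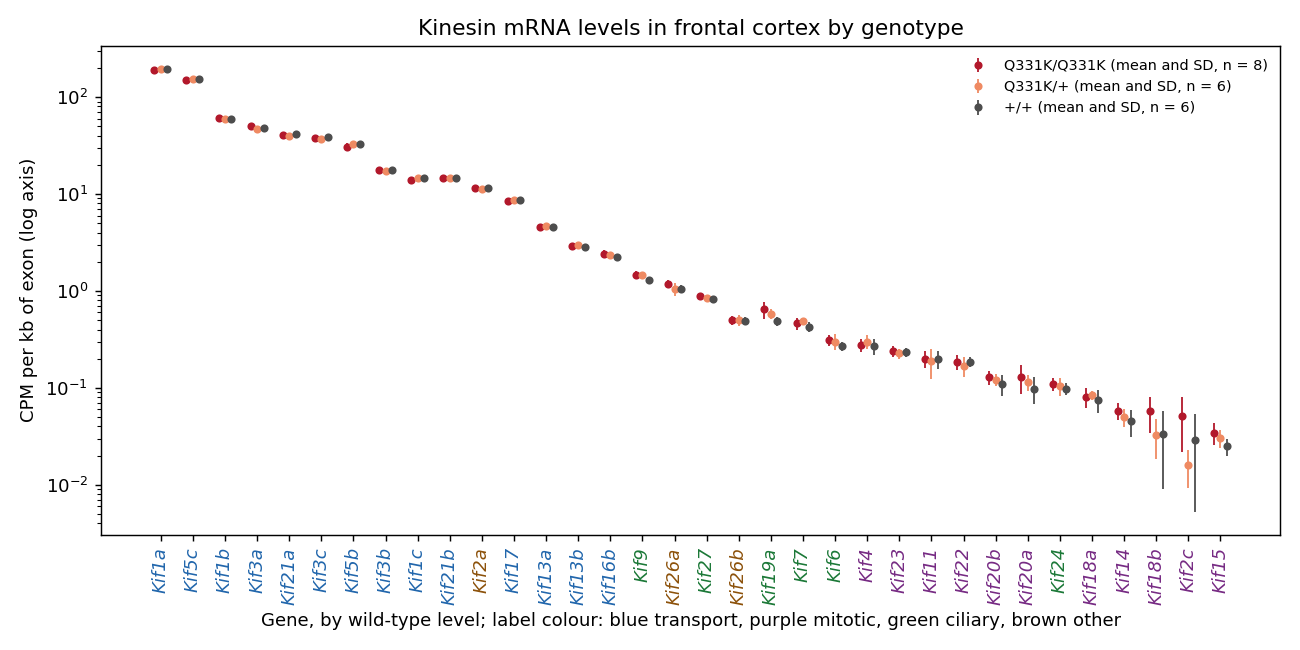
Levels of the 34 kinesins as CPM per kb of exon (log axis), in the order of the wild-type means, with points and bars for the mean and SD of each genotype and label colours for the classes. Transport kinesins fill the upper end and mitotic kinesins the lower end. Kif1a has 192 in homozygotes, 194 in heterozygotes and 194 in wild type, and Kif15 has 0.0345 in homozygotes, 0.0303 in heterozygotes and 0.0249 in wild type.

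The first comparison asked which kinesins differ with 2 mutant alleles. No kinesin passed: edgeR called 0 of 34 in homozygotes against wild type at an adjusted p under 0.05, against 1.56% of the 16690 genes tested. At an unadjusted p under 0.05 there were 6 of 34 (17.6%), against 16.1% of all genes. That count ran from 2 to 7 with each library left out in turn, with 2 when wild-type replicate 1 was omitted and 3 when homozygous replicate 8 was. DESeq2 called 1, Kif19a, where it called 638 of the 16690 genes, and limma voom called 0, where it called 300. No kinesin had homozygous and wild-type libraries that did not overlap, against 0.779% of all genes.

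The signs of these small differences varied by class. Of the 14 transport kinesins 7 were positive and 7 negative, with a median log2 change of 0.0016 and a range of -0.10 to 0.11. Of the 11 mitotic kinesins 10 were positive, with a median of 0.24 and a range of -0.0064 to 0.78. That median was 0.15 without wild-type replicate 6, and 0.15 to 0.36 with each library left out in turn. All 6 ciliary kinesins were positive, with a median of 0.15 and a range of 0.11 to 0.41. The median over all genes was 0.0013, with 50.6% positive. Over all genes, the share of positive changes also differed by level. Among the 3119 genes within the mitotic kinesins' CPM range 61.3% were positive, among the 2977 within the ciliary range 61.9%, and among the 7526 within the transport range 41.8%.

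**Figure D2:**
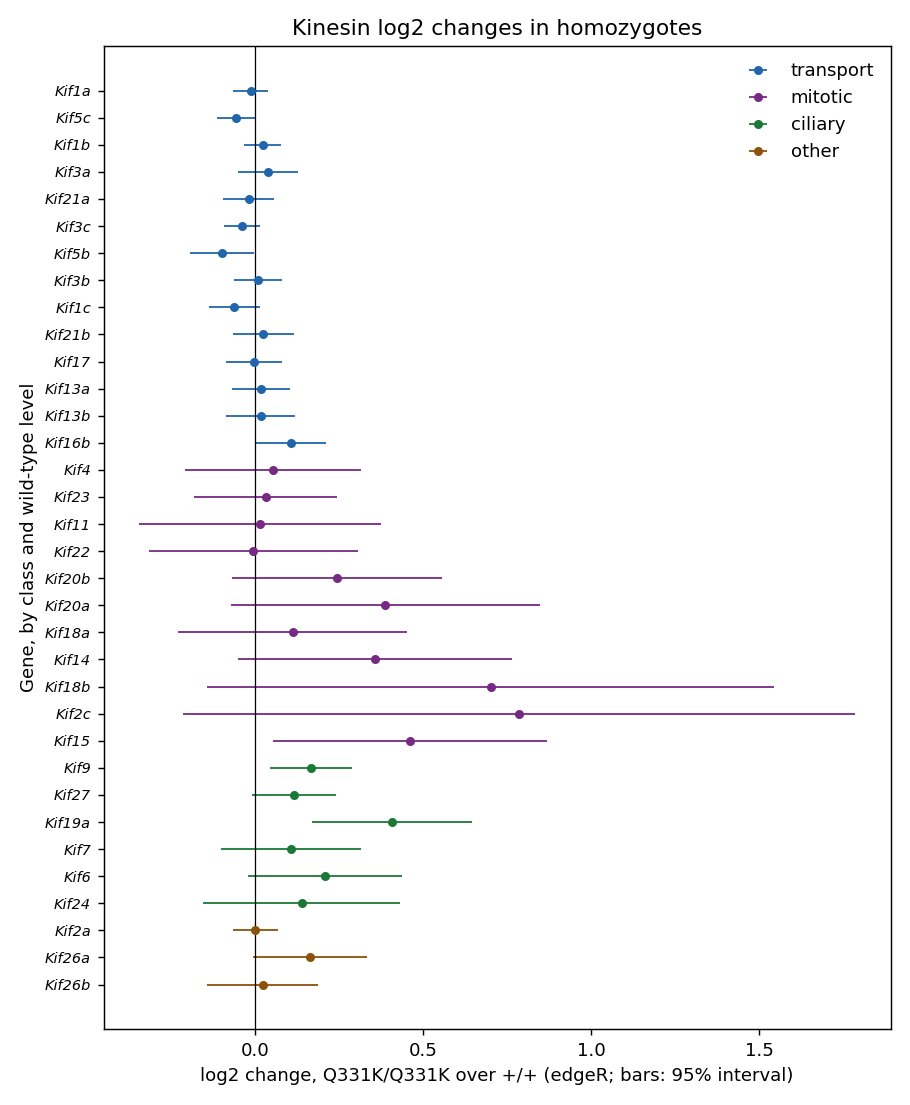
Log2 changes of the 34 kinesins in homozygotes over wild type (edgeR) with 95% intervals, by class and wild-type level. Transport kinesins sit between -0.10 and 0.11 with narrow intervals, and mitotic and ciliary kinesins lie mostly to the right of 0 with wider ones.

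Among transport kinesins, the conventional kinesins Kif5b and Kif5c had the smallest p-values among the negative changes. Kif5b (chromosome 18, 6201002 to 6242174, minus strand), the broadly expressed heavy chain, had 214, 243 and 285 CPM in homozygotes (lowest, median, highest), 246, 257 and 285 CPM in heterozygotes and 250, 261 and 273 CPM in wild type. The homozygous libraries spanned the whole range of the other groups, and the highest of all libraries was among them. The log2 change was -0.10 (95% interval -0.19 to -0.0046), with an edgeR adjusted p of 0.284. Without the 4 libraries of highest ependymal sum it was -0.15 and passed (edgeR adjusted p = 0.0473). That fit was added after the data were seen, and it leaves out homozygous replicate 2, which held the highest Kif5b value. With each library left out in turn the log2 change ran from -0.136 to -0.075 (edgeR adjusted p from 0.0694 to 0.457). The gene overlaps predicted genes on the opposite strand.

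Kif5c (chromosome 2, 49619298 to 49774778, plus strand) had 1008, 1087 and 1101 CPM in homozygotes, 1070, 1103 and 1145 CPM in heterozygotes and 1076, 1117 and 1147 CPM in wild type. The groups overlapped, although the lowest libraries were homozygous. The log2 change was -0.06 (95% interval -0.11 to -0.00080, edgeR adjusted p = 0.302). In CPM per kb of exon, the ratio of Kif5c to Kif5b was 4.90 ± 0.332 in homozygotes, 4.73 ± 0.234 in heterozygotes and 4.74 ± 0.117 in wild type. The pair thus kept their proportion within the spread. Kif5c overlaps the predicted gene Gm13525 on the same strand.

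Kif1c (chromosome 11, 70700548 to 70731964, plus strand), a motor of vesicle and mRNA transport, had 97.8, 102 and 112 CPM in homozygotes, 97.4, 108 and 116 CPM in heterozygotes and 104, 105 and 115 CPM in wild type (log2 change -0.06, edgeR adjusted p = 0.431). Kif16b (chromosome 2, 142617474 to 142901531, minus strand), an early endosome motor, had the smallest p among the positive changes of the class. Its groups overlapped. It had 19.5, 22.0 and 24.7 CPM in homozygotes, 19.8, 21.8 and 22.5 CPM in heterozygotes and 18.3, 20.7 and 21.9 CPM in wild type, with a log2 change of 0.11 (95% interval 0.0030 to 0.21, edgeR adjusted p = 0.293).

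The most abundant motors were measured closely. Kif1a (chromosome 1, 93015456 to 93101865, minus strand) had 1686, 1786 and 1866 CPM in homozygotes, 1769, 1820 and 1846 CPM in heterozygotes and 1790, 1813 and 1832 CPM in wild type. Its log2 change was -0.01 with a 95% interval of -0.07 to 0.04 (edgeR adjusted p = 0.835). Kif1b (chromosome 4, 149176319 to 149307693, minus strand) had 1020, 1078 and 1105 CPM in homozygotes, 1022, 1051 and 1110 CPM in heterozygotes and 1012, 1069 and 1085 CPM in wild type, with a log2 change of 0.02 and a 95% interval of -0.03 to 0.08 (edgeR adjusted p = 0.749). For these genes the intervals leave room only for changes under 0.1 in either direction.

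The other transport kinesins lay between log2 changes of -0.04 (Kif3c) and 0.04 (Kif3a), with edgeR adjusted p-values of at least 0.466. They include Kif3a and Kif3b, the motor pair of anterograde transport in cilia and axons, Kif17, a carrier of NMDA receptor vesicles in dendrites, and Kif21a, Kif21b, Kif13a and Kif13b. Kif17 overlaps Sh2d5 and Kif3c overlaps Gm48511, both on the same strand. In CPM per kb of exon, the ratio of Kif3b to Kif3a was 0.355 ± 0.0173 in homozygotes, 0.367 ± 0.0148 in heterozygotes and 0.362 ± 0.0166 in wild type. On the same scale, the ratio of Kif3c, the alternative partner of Kif3a, to Kif3a was 0.754 ± 0.0438 in homozygotes, 0.794 ± 0.0298 in heterozygotes and 0.794 ± 0.0231 in wild type. Both ratios overlapped between the genotypes.

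**Figure D3:**
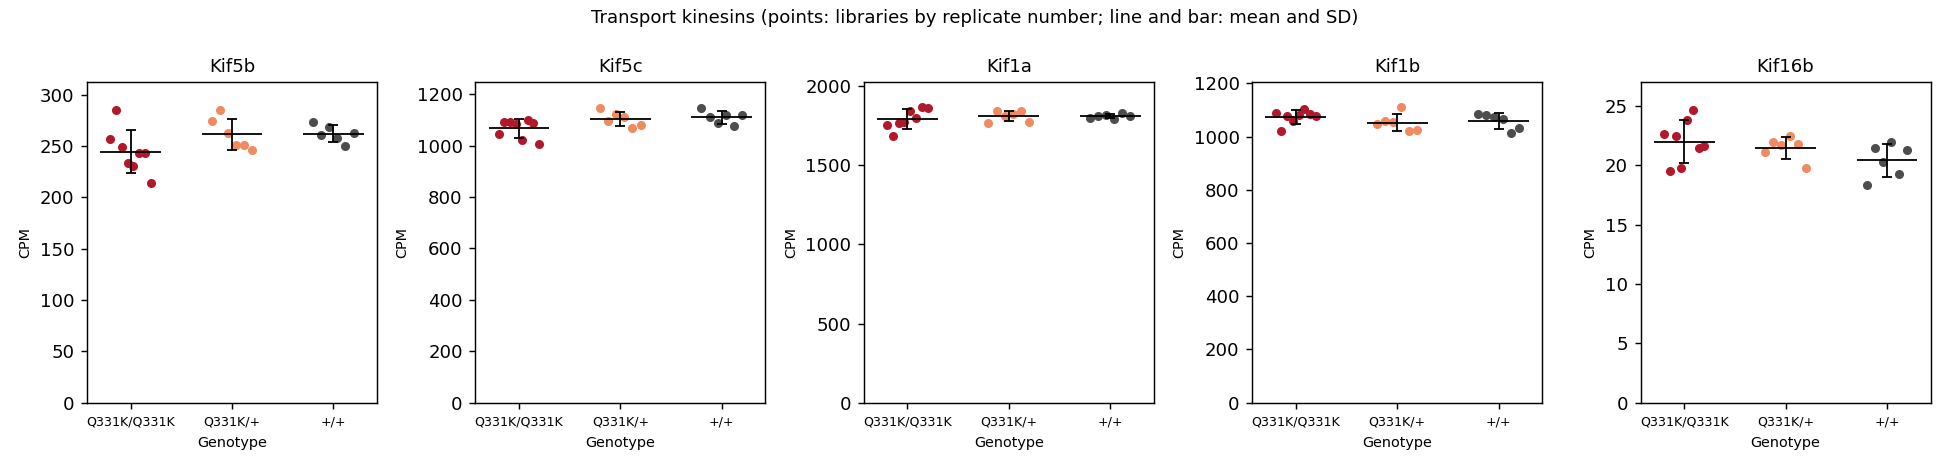
CPM of 5 transport kinesins in each library, by genotype, with the mean as a line and the SD as a bar. Kif5b and Kif5c have their lowest libraries among homozygotes, and in every panel the genotypes overlap.

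The ciliary kinesins Kif19a and Kif9 had the smallest p-values of the 34 genes in homozygotes against wild type. Kif19a, which shortens microtubules at the tips of motile cilia, had 1.88, 2.67 and 3.55 CPM in homozygotes, 2.12, 2.27 and 2.85 CPM in heterozygotes and 1.78, 1.95 and 2.38 CPM in wild type. Of the 8 homozygous libraries some lay above every wild-type library and others among them, so the groups overlapped. The log2 change was 0.41 with an SE of 0.115 (95% interval 0.17 to 0.64), and the edgeR adjusted p was 0.070. Kif19a (chromosome 11, 114765388 to 114790739, plus strand) overlaps no other annotated gene.

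That adjusted p was under the threshold in some other fits. It was 0.0238 with DESeq2, 0.0434 with the replicate number as a block, and 0.0449, 0.0357 and 0.0443 without wild-type replicate 4, homozygous replicate 6 and homozygous replicate 7 (edgeR for the last 4). Without the 4 libraries of highest ependymal sum the log2 change was 0.24 (edgeR adjusted p = 0.284), and with the ependymal sum as a covariate it was 0.22 (edgeR adjusted p = 0.321).

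Kif9, linked to the central apparatus of motile cilia and flagella, had 5.30, 6.34 and 7.07 CPM in homozygotes, 6.13, 6.32 and 6.43 CPM in heterozygotes and 5.21, 5.65 and 5.87 CPM in wild type. Every heterozygous library lay above every wild-type library, whereas homozygous libraries overlapped both groups. The log2 change in homozygotes was 0.17 (95% interval 0.04 to 0.29, edgeR adjusted p = 0.151). Without the 4 libraries it was 0.15 (edgeR adjusted p = 0.231). Kif9 lies on chromosome 9 from 110476994 to 110525179 on the plus strand.

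Kif27 (chromosome 13, 58287516 to 58354862, minus strand), which takes part in building the central pair of motile cilia, had 4.32, 4.59 and 5.12 CPM in homozygotes, 4.02, 4.30 and 4.85 CPM in heterozygotes and 3.74, 4.35 and 4.72 CPM in wild type (log2 change 0.12, edgeR adjusted p = 0.360). Kif6, found in cilia of ependymal cells, had a log2 change of 0.21 (edgeR adjusted p = 0.373). Kif7, a regulator of Hedgehog signalling in primary cilia, had 0.11 and overlaps Ticrr on the opposite strand. Kif24, a centriolar kinesin that limits cilium formation in human cells, had 0.14. The adjusted p of Kif7 was 0.650 and that of Kif24 was 0.686 (edgeR).

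The summed level of the 6 ciliary kinesins was 18.4 ± 1.03 CPM in homozygotes, 17.9 ± 0.489 CPM in heterozygotes and 16.2 ± 0.853 CPM in wild type. All 9 ependymal markers were positive in homozygotes against wild type. Rsph1, a radial spoke protein, was the 1 marker that rose (log2 change 0.39, edgeR adjusted p = 0.0416). Tmem212 and Ccdc153 had log2 changes of 2.53 and 2.54, Ak7 2.10, Dynlrb2 0.57, Hydin 0.53, Foxj1 0.47, Mlf1 0.39 and Tekt1 0.18, none of them called. Rsph1, Ak7, Ccdc153, Tmem212, Foxj1 and Dynlrb2 had an unadjusted p under 0.05 (edgeR), and Hydin, Mlf1 and Tekt1 did not. Over all genes, 16.1% had such a p. Tmem212, a defining ependymal marker, was at 0 in 2 libraries. The part of these cells in the ciliary kinesin values was not tested. The 2 fits above cannot tell it apart from genotype. The libraries left out were homozygous replicates 1, 2 and 4 and heterozygous replicate 2, none of them wild type. The ependymal sum averaged 14.6 ± 5.99 CPM in homozygotes, 11.3 ± 3.36 CPM in heterozygotes and 9.38 ± 0.743 CPM in wild type. In bulk tissue fewer or more cells of a type and less or more RNA per cell cannot be told apart.

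**Figure D4:**
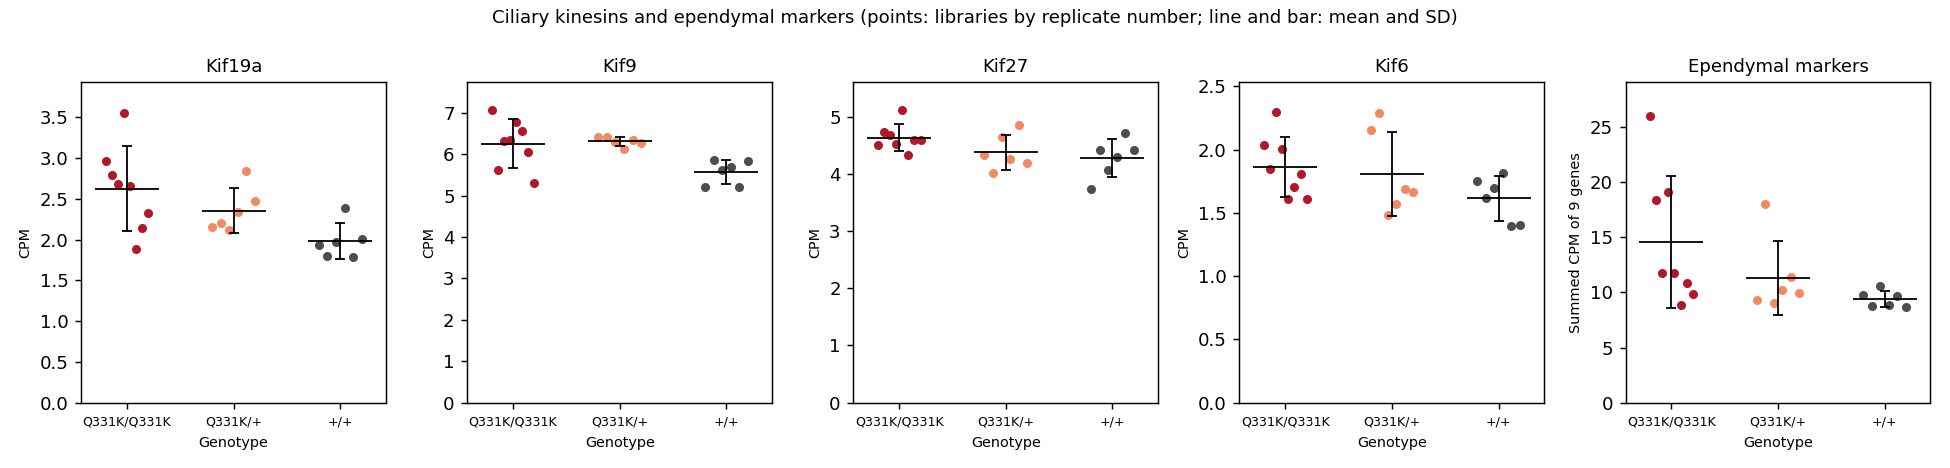
CPM of 4 ciliary kinesins and the summed CPM of 9 ependymal markers in each library, by genotype, with the mean as a line and the SD as a bar. The ependymal sum reaches 26.0 CPM among homozygotes and 18.0 CPM among heterozygotes, while wild-type libraries stay at or below 10.5 CPM.

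Mitotic kinesins were rare and varied more between libraries. The median coefficient of variation over the 11 mitotic genes was 24.0% in wild type, against 3.87% over the transport genes and 11.1% over the ciliary genes. Kif15, which helps to keep spindle poles apart, had the smallest p of the class. It had 0.267, 0.360 and 0.539 CPM in homozygotes, 0.257, 0.323 and 0.458 CPM in heterozygotes and 0.221, 0.260 and 0.359 CPM in wild type. In counts per library this is 23 to 44 in homozygotes, 16 to 41 in heterozygotes and 16 to 34 in wild type. The log2 change was 0.46 (95% interval 0.05 to 0.87, edgeR adjusted p = 0.245), and it was 0.22 without the 4 libraries of highest ependymal sum and 0.16 with that sum as a covariate. Kif15 lies on chromosome 9 from 122951081 to 123018725 on the plus strand and overlaps Gm47148 on the same strand.

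The larger fold changes of the class came from its rarest genes. Kif2c, a microtubule depolymerase at kinetochores, had 5 to 35 counts per library in homozygotes, 3 to 11 in heterozygotes and 0 to 20 in wild type. Its log2 change in homozygotes was 0.78 with a 95% interval of -0.22 to 1.78. Kif18b, which shortens astral microtubules, had 8 to 26 counts in homozygotes, 1 to 17 in heterozygotes and 1 to 23 in wild type, and a log2 change of 0.70 (95% interval -0.14 to 1.55). If each count is an independent read, counting alone gives Kif2c a coefficient of variation of 23.1% in homozygotes, 40.8% in heterozygotes and 30.2% in wild type. The observed values were 57.7% in homozygotes, 42.3% in heterozygotes and 82.2% in wild type. For Kif18b counting alone gives 24.2% in homozygotes, 31.6% in heterozygotes and 30.2% in wild type. The observed values of Kif18b were 40.3% in homozygotes, 44.5% in heterozygotes and 72.8% in wild type. In homozygotes and wild type both genes thus varied between libraries by more than counting alone, while Kif2c in heterozygotes lay close to it.

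The 3 most abundant mitotic kinesins had log2 changes near 0. Their 95% intervals were -0.18 to 0.24 for Kif23, -0.21 to 0.31 for Kif4 and -0.34 to 0.37 for Kif11, so larger changes are not excluded. Kif23 (chromosome 9, 61917280 to 61946799, minus strand), a motor of the central spindle and cytokinesis, had 1.51, 2.03 and 2.17 CPM in homozygotes, 1.55, 1.75 and 2.10 CPM in heterozygotes and 1.57, 1.84 and 2.11 CPM in wild type (log2 change 0.03, edgeR adjusted p = 0.916). Kif4 (chromosome X, 100625737 to 100727214, plus strand), a chromosome-bound kinesin, had 1.18, 1.55 and 1.86 CPM in homozygotes, 1.31, 1.76 and 1.88 CPM in heterozygotes and 1.28, 1.33 and 1.94 CPM in wild type (log2 change 0.05, edgeR adjusted p = 0.882). Kif11 (chromosome 19, 37376403 to 37421859, plus strand), the motor that separates the spindle poles, had 1.17, 1.44 and 1.97 CPM in homozygotes, 0.948, 1.24 and 2.19 CPM in heterozygotes and 1.13, 1.49 and 1.90 CPM in wild type (log2 change 0.015, edgeR adjusted p = 0.979). In all 3 genes the genotypes overlapped, and Kif4 overlaps Pdzd11 on the opposite strand. Kif11 overlaps an annotated gene on each strand. With the limit for members raised to a mean of 1 CPM, only these 3 mitotic kinesins remained, with a median of 0.03.

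The other 5 mitotic kinesins lay between log2 changes of -0.0064 (Kif22) and 0.39 (Kif20a), with edgeR adjusted p-values of at least 0.391. Kif14 had 0.36, Kif20b 0.24 and Kif18a 0.11. Kif20a overlaps Cdc23 and Kif18a overlaps Mettl15, both on the opposite strand, and Kif14 overlaps 2 annotated genes on its own strand. The 11 mitotic kinesins summed to 9.49 ± 1.20 CPM in homozygotes, 8.87 ± 0.719 CPM in heterozygotes and 8.62 ± 1.06 CPM in wild type, and the groups overlapped.

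Markers of cycling cells were also low in this tissue. The 9 markers summed to 5.98 to 9.52 CPM in homozygotes, 6.31 to 8.75 CPM in heterozygotes and 5.12 to 9.84 CPM in wild type. Of them 5 were positive in homozygotes and 0 were called by edgeR, with 1 (Mki67) at an unadjusted p under 0.05. Mki67 had a log2 change of 0.53, Top2a 0.41, Cdk1 0.35, Cenpf 0.10, Ccnb1 0.08, Aurkb -0.01, Ccna2 -0.02, Birc5 -0.02 and Bub1 -0.14. Bub1 was at 0 in 1 library. The part of cycling cells in the mitotic kinesin values was not tested.

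**Figure D5:**
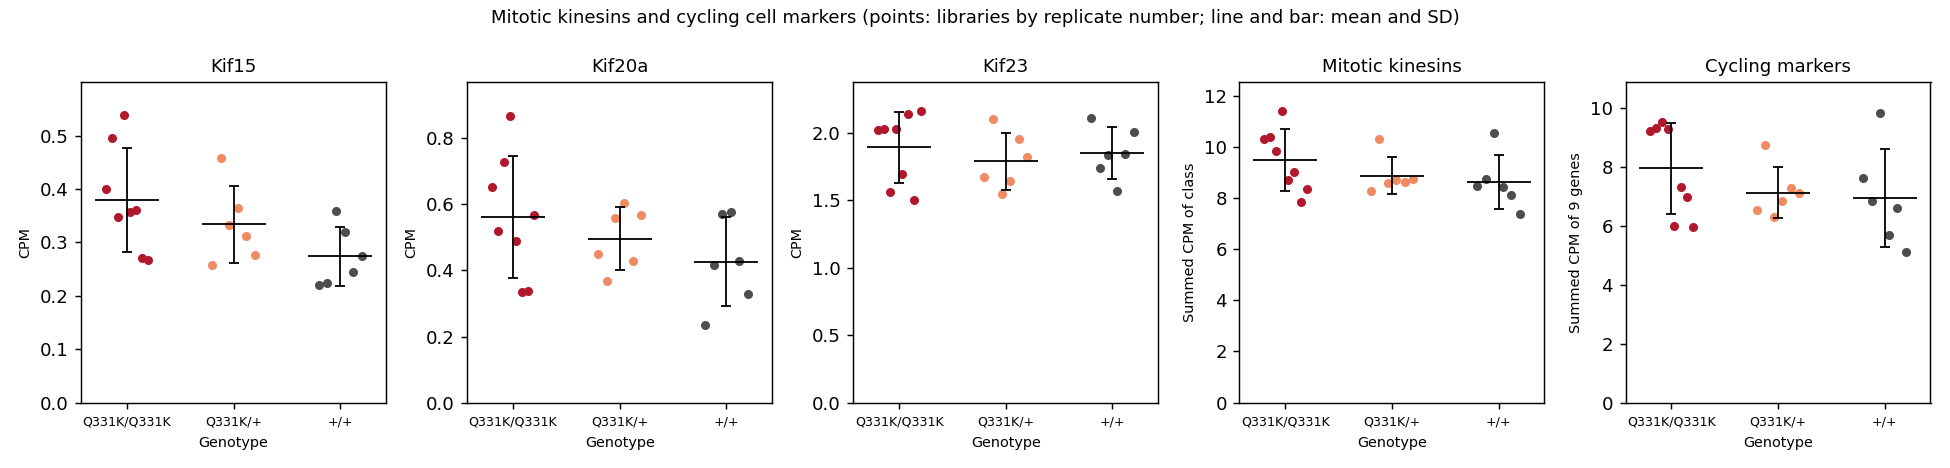
CPM of 3 mitotic kinesins, the sum of the 11 mitotic kinesins and the sum of 9 cycling cell markers in each library, by genotype, with the mean as a line and the SD as a bar. Homozygous and wild-type libraries overlap in each panel.

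None of the 3 kinesins outside these classes was called. Kif2a (chromosome 13, 106958996 to 107022126, minus strand), a microtubule depolymerase of growing neurites, had 69.5, 74.9 and 78.0 CPM in homozygotes, 67.3, 73.6 and 76.3 CPM in heterozygotes and 70.6, 74.8 and 78.3 CPM in wild type, with a log2 change of 0.00018 (95% interval -0.07 to 0.07). Kif26b (chromosome 1, 178529125 to 178932855, plus strand), a kinesin without known motor activity, had 6.26, 7.29 and 8.99 CPM in homozygotes, 6.65, 7.06 and 9.21 CPM in heterozygotes and 6.19, 7.32 and 8.05 CPM in wild type (log2 change 0.02). Its relative Kif26a (chromosome 12, 112146235 to 112181746, plus strand) had 6.59, 8.23 and 9.04 CPM in homozygotes, 5.56, 7.42 and 8.60 CPM in heterozygotes and 6.49, 7.47 and 8.04 CPM in wild type (log2 change 0.16, edgeR adjusted p = 0.338). The genotypes overlapped in all 3, and Kif2a overlaps Dimt1 on the opposite strand.

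With 1 mutant allele, too, no kinesin passed. In heterozygotes against wild type edgeR called 0 of 34 kinesins and 0 of all 16690 genes (0%), while DESeq2 called 2 of all genes and limma voom 0. By edgeR, 1 kinesin (2.94%) had an unadjusted p under 0.05, against 3.19% of all genes. Neither DESeq2 nor limma voom called a kinesin (0 each). The 1 gene was Kif9, with a log2 change of 0.18 (95% interval 0.05 to 0.31, edgeR adjusted p = 0.9996). It was also the 1 kinesin of 34 whose heterozygous and wild-type libraries did not overlap, against 0.174% of all genes. The median log2 change was -0.0036 for transport, 0.15 for mitotic and 0.17 for ciliary kinesins. Positive changes numbered 6 of 14, 6 of 11 and 6 of 6 in turn, against 51.2% of all genes.

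The comparison of homozygotes with heterozygotes asks what the second allele adds, and it shares its libraries with the other comparisons. EdgeR called 0 of 34 kinesins, against 0.108% of all genes. DESeq2 and limma voom also called 0 kinesins, where they called 103 and 23 of the 16690 genes. At an unadjusted p under 0.05 there were 2 kinesins (5.88%), against 11.0% of all genes. They were Kif2c, with a log2 change of 1.60 (95% interval 0.50 to 2.71, edgeR adjusted p = 0.302) on the low counts above, and Kif5b with -0.10 (edgeR adjusted p = 0.441). No kinesin had homozygous and heterozygous libraries that did not overlap, against 0.282% of all genes. The median was -0.0074 for transport, 0.14 for mitotic and 0.04 for ciliary kinesins. Positive changes numbered 7 of 14, 9 of 11 and 4 of 6 in turn, against 49.8% of all genes.

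A trend with the number of mutant alleles used all 20 libraries. EdgeR called 0 of 34 kinesins, against 1.83% of all genes. DESeq2 called 1 (Kif19a), where it called 696 of the 16690 genes, and limma voom 0, where it called 349. At an unadjusted p under 0.05 there were 7 kinesins (20.6%), against 16.8% of all genes. Of these Kif19a, Kif9, Kif15, Kif26a and Kif16b had positive and Kif5b and Kif5c negative slopes. Kif19a had a slope of 0.20 on the log2 scale per allele (edgeR adjusted p = 0.062), Kif5b of -0.05 (0.252) and Kif5c of -0.03 (0.266). The median slope was 0.00072 for transport, 0.12 for mitotic and 0.07 for ciliary kinesins. Positive slopes numbered 7 of 14, 11 of 11 and 6 of 6 in turn, against 50.6% of all genes. The share of positive changes by level was counted only for homozygotes against wild type.

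Other parts of the transport machinery held 2 called genes. Of 20 kinesin light chains and cargo adaptors, 1 rose in homozygotes, 0 fell and 6 had an unadjusted p under 0.05 (12 of 20 negative, median -0.04). Over all genes, 1.56% were called and 16.1% had such a p. The gene that rose was Hap1, an adaptor between huntingtin and motors, with 89.0, 100 and 126 CPM in homozygotes, 87.3, 93.6 and 94.6 CPM in heterozygotes and 80.6, 87.4 and 93.0 CPM in wild type (log2 change 0.24, edgeR adjusted p = 0.041). Rhot2 and Trak1, which link kinesin to mitochondria, had log2 changes of -0.14 and -0.12 and were not called (edgeR adjusted p = 0.068 and 0.142).

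Dynein and dynactin, the motor and cofactor of the opposite direction, had 1 of 24 genes that fell and 0 that rose (15 of 24 negative, median -0.02), where 1.56% of all genes were called. Actr1a, the main subunit of the dynactin filament, had 158, 163 and 170 CPM in homozygotes, 169, 171 and 182 CPM in heterozygotes and 171, 181 and 184 CPM in wild type. Every homozygous library lay below every wild-type library, a separation seen in 0.779% of all genes. Its log2 change was -0.13 (edgeR adjusted p = 0.00708). Nde1 and Dynll2, the next 2 by p, had -0.14 and -0.07 (edgeR adjusted p = 0.348 and 0.376). Of the 4 kinesins that the name rule does not take, Kifc1, Kifc2, Kifc3 and Cenpe, edgeR called 0, with 1 at an unadjusted p under 0.05 (Kifc3, -0.08). Hap1 and Actr1a were also called in the allele trend (edgeR adjusted p = 0.029 and 0.00584), and no gene of these lists was called in the comparisons with heterozygotes.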

How the data were processed

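The authors deposited raw whole-number counts per gene for the 20 libraries in 1 table, with no normalisation. The submitters' processing notes name the build GRCm38 and the tools HISAT2 2.0.5 and Trim Galore 0.4.3. How reads were counted (program, gene annotation, strand) is not given in the sources used here, and overlapping genes may share reads. The main overlaps are named beside the values. No libraries were identical.

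All 16690 genes left by filterByExpr were fitted in R 4.3.3 by the robust quasi-likelihood method of edgeR 4.0.16 with TMM scaling, the 20 libraries in 1 fit by genotype, or by allele number for the trend. A gene was called when its p, adjusted over all genes by Benjamini-Hochberg, was under 0.05. CPM uses TMM factors, and log2 changes and 95% intervals are edgeR's. DESeq2 1.42.0 and limma 3.58.1 voom were alternatives, as were other scalings and filters, the replicate number as a block, fits of only the 2 genotypes compared and each library left out. The fit was also run on simulated counts with planted changes larger than most of the kinesin changes above. That run does not show how well changes of the kinesins' size are found.

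The members, classes, pathway lists and markers were chosen with earlier results of these data known. The fits without the 4 libraries of highest ependymal sum and with that sum as a covariate were added after the data were seen. Values are given for the 3 kinesins of smallest p in each direction in homozygotes against wild type, the 3 of highest CPM in each class, the 2 on either side of the member limit, called pathway genes and the 3 of smallest p, and every ependymal and cycling marker. Kif16b, Kif2c and Kif18b were added after their values were seen. Coordinates are those of the deposited table, exon lengths and overlaps are from GENCODE M21, and promoter windows are from RefSeq (GRCm38.p6), which gave none for Kif13b, Kif19a, Kif20a, Kif21b and Kif5b. Markers of 12 other cell types were summed as well.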

Additional observations from a re-analysis of the deposited data

Results flagged for a closer look

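In 7 of 102 groups of libraries (34 kinesins in 3 genotypes), 1 library lay farther from its neighbours than Dixon's 95% critical value allows, and chance marks about 1 in 20 groups. Homozygous replicate 4 was high for Kif18a at 1.22 CPM (next 0.844 CPM) and for Kif2c at 0.497 CPM (next 0.241 CPM). Homozygous replicate 2 was high for Kif1c at 112 CPM (next 104 CPM) and low for Kif3c at 262 CPM (next 276 CPM). Both libraries are among the 4 of highest ependymal sum. Heterozygous replicate 6 was high for Kif26b at 9.21 CPM (next 7.37 CPM) and low for Kif18b at 0.0132 CPM (next 0.123 CPM), which is 1 count. Heterozygous replicate 4 was high for Kif3c at 292 CPM (next 276 CPM).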

How the results depend on the processing

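The number of kinesins called in homozygotes against wild type and in the allele trend was 0, and it was 1 (Kif19a) with DESeq2 and with the replicate block. It ranged from 0 to 1 with each library left out, and was 1 without wild-type replicate 4, homozygous replicate 6 or homozygous replicate 7. Without the 4 libraries of highest ependymal sum, 1 kinesin, Kif5b, was called in homozygotes against wild type (log2 change -0.15, edgeR adjusted p = 0.0473). That fit called 253 of the 16645 genes it tested, and it leaves out homozygous replicate 2, the library with the highest Kif5b value. The other 2 comparisons gave 0 throughout. Same-numbered libraries deviated together weakly at most (r from -0.104 to 0.139 over 18 pairs). Their median r was 0.0444, against -0.00626 for other pairs of different genotypes. Weak correlations over many genes cannot decide whether the numbers pair the libraries. The block called Kif19a at a log2 change of 0.47 (edgeR adjusted p = 0.0434).

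The mitotic median was 0.24, against 0.15 to 0.36 with each library left out, 0.15 without the 4 libraries, 0.07 with the ependymal covariate and 0.04 for the 4 genes left by a filter of 1 CPM in 6 libraries, and 0.03 for members at a mean of at least 1 CPM. Over all alternatives run, the transport median lay between -0.02 and 0.01 and the ciliary median between 0.11 and 0.21. The alternatives were fitted over all genes, but log2 changes by gene were compared only for the 15 kinesins chosen by rule, not for the other 19. The sign turned in 6 of the 15. With voom, Kif11 was at -0.0656 and Kif2a at -0.00076. With the block, Kif26b was at -0.0243 and Kif2a at -0.0045, and without the filter Kif2a was at -4.29e-05. Without the 4 libraries, Kif11 was at -0.18, Kif23 at -0.0315 and Kif1a at 0.0129. With the covariate, Kif11 was at -0.32, Kif23 at -0.0517, Kif4 at -0.0387 and Kif1a at 0.0025. With each library left out, Kif11 ranged from -0.0516 to 0.103, Kif23 from -0.0127 to 0.0747, Kif26b from -0.027 to 0.0557 and Kif2a from -0.0151 to 0.0137. The cause was not tested.

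Over all genes, 261 were called in homozygotes against wild type, 638 with DESeq2, 387 with the replicate block and 466 with the covariate. With each library left out the number ran from 115 to 314, with 115, 122, 139 and 148 on omitting wild-type replicates 6, 5, 1 and 3 in turn and 147 on omitting homozygous replicate 5. The trend had 306, with 696 by DESeq2, 474 with the covariate, 193 without the 4 libraries, 159 on omitting wild-type replicate 5 or 6, and 189 on omitting homozygous replicate 5. Homozygotes against heterozygotes had 18, with 103 by DESeq2, 121 with the covariate, 11 without the filter and 5 to 31 with each library left out. The 5 came on omitting homozygous replicate 1 or 8 or heterozygous replicate 2, and the 31 on omitting homozygous replicate 2. Omitting homozygous replicate 6 gave 11, heterozygous replicates 6 and 3 gave 7 and 10, and wild-type replicate 6 gave 29. Kinesins at an unadjusted p under 0.05 numbered 2 to 7 in homozygotes against wild type, 1 to 3 in heterozygotes against wild type, 1 to 4 in homozygotes against heterozygotes and 4 to 10 in the trend with each library left out. Kif2c and Kif18b had only 0 to 35 and 1 to 26 counts per library.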

Other observations

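Of 4 markers of parvalbumin interneurons, 3 fell in homozygotes against wild type (median log2 change -0.29, edgeR), where 1.56% of all genes were called. Their summed level averaged 346 ± 16.1 CPM in homozygotes, 379 ± 8.48 CPM in heterozygotes and 389 ± 20.5 CPM in wild type (SD over 8, 6 and 6 libraries). The other 11 lists covered cortical neurons, choroid plexus, meninges, neuroblasts, olfactory bulb, striatum, oligodendrocytes, their precursors, astrocytes, microglia and endothelium. Of their 49 markers tested, edgeR called 0, with 15 at an unadjusted p under 0.05, against 16.1% of all genes. The sum of cortical neuron markers averaged 5998 ± 193 CPM in homozygotes, 6021 ± 143 CPM in heterozygotes and 6236 ± 128 CPM in wild type, with 6 of 7 negative. Summed meningeal markers averaged 90.4 ± 13.8 CPM in homozygotes, 75.8 ± 8.13 CPM in heterozygotes and 73.6 ± 17.8 CPM in wild type, and all 6 were positive. Summed choroid plexus markers averaged 6.05 ± 2.22 CPM in homozygotes, 5.41 ± 1.54 CPM in heterozygotes and 4.54 ± 1.37 CPM in wild type, with 5 of 5 tested positive. Summed olfactory bulb markers averaged 26.6 ± 26.8 CPM in homozygotes, 8.32 ± 1.70 CPM in heterozygotes and 11.4 ± 5.44 CPM in wild type, and all 4 were positive. Summed neuroblast markers averaged 97.3 ± 9.82 CPM in homozygotes, 82.1 ± 5.35 CPM in heterozygotes and 80.6 ± 6.39 CPM in wild type, and all 6 were positive. In the 6 remaining lists the median log2 change lay between -0.0050 and 0.11.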
